A study of Homo sapiens with 12 samples.

Results

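A set of 47 genes of the actin cytoskeleton and of focal adhesions was followed across cultures of LNCaP, an androgen-responsive cell line from a prostate cancer that the labels call early in stage. The genes were listed by symbol, and the list was drawn up with earlier results of these data known. They cover actins, tropomyosins, non-muscle myosin chains, the ARP2/3 complex and other nucleators, proteins that bind, cap, crosslink or turn over filaments, and integrins with their adaptor proteins. Of the 47 genes, 43 were named by a probe set with 1 symbol, out of 11963 genes so named on the array. Of these, 40 were bright enough to be tested, out of 6821 genes tested. TPM2, MYL9 and CNN3 lay at or below the array median on all 12 arrays and therefore have no fold change. TPM3, ACTR2 and FLNA are not analysed here, and ACTG1 was left out because each of its probe sets also carries the symbol ACTB.

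Cells were transfected with miR-130a, with miR-203, with miR-205 or with a scramble microRNA, and the 3 arrays of each group are biological replicates per the labels. The scramble cultures were therefore transfected too, and no untransfected cells were analysed here. The labels give neither the dose, nor the hours until harvest, nor the arm of each microRNA. All 4 groups are LNCaP, so they represent 1 luminal tumour line. The comparisons ask how the RNA levels of these genes differed after each microRNA. The p-values reflect only how much these cultures varied, and the 3 arrays per group limit the precision. An exact test of 3 arrays against 3 has 10 splits and cannot go below p = 0.1, so the p-values given are those of a limma model fitted over all genes, with Benjamini-Hochberg adjustment, and a result passed below 0.05.

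Actin filaments grow from nuclei made by the ARP2/3 complex, which starts side branches, or by formins, which start unbranched filaments. Tropomyosins lie along the filaments and non-muscle myosin pulls on them, while capping proteins, cofilin and profilins set the pace of growth and turnover. Focal adhesions tie the filament ends to integrins in the membrane through talin, vinculin, zyxin and paxillin, and focal adhesion kinase signals there. A microRNA recognises messenger RNAs mainly through the seed near its 5′ end and lowers the RNA and protein of those it pairs with. Many genes in this set are known targets of SRF, a transcription factor that binds a motif called the CArG box and whose MRTF cofactors respond to free actin.

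The mature forms of miR-203 and miR-205 from RefSeq (GRCh38.p14) are shown so that their seeds can be compared. Capitals mark the seed, bases 2 to 8, written 5′ to 3′. The first lies at chr14:104117469-104117490 and the second at chr1:209432166-209432187, both on the plus strand. The labels do not give the arm, so the arm that RefSeq names here was taken. The seeds of miR-203 and miR-205 are different sequences.
hsa-miR-203a-3p: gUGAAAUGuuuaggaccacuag
hsa-miR-205-5p: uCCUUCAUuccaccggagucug

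The deposited values are on the log2 scale, and the 12 arrays share that scale, with array medians between 2.76 and 2.78. Arrays of the same group correlated at 0.9916 to 0.9973 over the tested genes and arrays of different groups at 0.964 to 0.9857. The 3′ over 5′ ratio of ACTB, a sign of RNA quality, ran between 2.18 and 2.66 log2 units, and the highest value belonged to scramble replicate 1. Of the luminal markers that define LNCaP, 7 of 10 were named and all 7 were tested, while the 5 named basal markers and the 7 named leukocyte and endothelial markers were dim on every array. The summed linear level of the luminal markers was 4732 to 4959 with miR-130a, 2679 to 2996 with miR-203, 6170 to 6727 with miR-205, and 4910 to 5298 with scramble. With miR-203, 4 of the 7 fell (57.1%), beside 18.9% of all genes, namely KLK3, KLK2, TMPRSS2 and KRT18. Their part in the results for miR-203 below was not tested. With miR-205, 2 of the 7 rose (28.6%) and 1 fell (14.3%), beside 11.3% and 14.8% of all genes. With miR-130a, 1 fell (14.3%), beside 11.6%. Of 10 fibroblast and smooth muscle markers, 6 were dim on all arrays (COL1A2, DCN, LUM, DES, MYH11 and CNN1). COL1A1, ACTA2 and SYNM were the 3 tested. Of these, 2 rose (66.7%) and none fell with miR-130a, beside 12% and 11.6% of all genes. With miR-203 none rose and 1 fell (33.3%), beside 17.3% and 18.9%, and with miR-205 none passed. The summed level of that list was 74.07 to 75.96 with miR-130a, 61.77 to 63.25 with miR-203, 63.64 to 64.4 with miR-205, and 63.21 to 65.85 with scramble. Its part in the results for miR-130a and miR-203 was not tested. In bulk RNA, fewer cells of a type and less RNA per cell cannot be told apart.

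Most of the calls with miR-203 in these genes were decreases. With miR-203, 17 of the 40 tested members (42.5%) fell against scramble, beside 18.9% of all genes tested, and 5 rose (12.5%), beside 17.3% of all genes. The genes that fell include the tropomyosins TPM1 and TPM4 and the non-muscle myosin heavy chains MYH9 and MYH10. Profilin 2, moesin, transgelin 2, zyxin and integrin beta 1 also fell. The median difference of the members was -0.19 log2, and that of all genes 0.01. The 5 increases became 3 without miR-203 replicate 1 and 2 without miR-203 replicate 2 or without scramble replicate 2, while the decreases numbered 14 to 17 without each array in turn.

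With miR-130a, 7 members rose (17.5%), beside 12% of all genes, and 2 fell (5%), beside 11.6% of all genes. With miR-205, 8 members rose (20%), beside 11.3% of all genes, and 5 fell (12.5%), beside 14.8% of all genes. Without miR-205 replicate 1, the 13 calls with miR-205 became 5, and without scramble replicate 3 they became 7. Without miR-130a replicate 3, miR-205 replicate 3 or scramble replicate 2 they became 8. After median centring 5 members rose and 4 fell with miR-130a, and 11 rose and 4 fell with miR-205. The members' medians were 0.01 log2 with miR-130a and 0.03 with miR-205, and those of all genes -0.01 and 0.00. A difference of any kind between groups (moderated F-test) was called for 26 of the 40 members (65%) and for 60.8% of all genes, so the share of members that differed somewhere was near the background. By role, it was called for ACTB, for 2 of 2 tropomyosins, 2 of 3 myosin chains, 7 of 8 ARP2/3 and nucleator genes, 9 of 16 actin-binding genes and 5 of 10 adhesion genes. The 3 comparisons with scramble share the scramble arrays, so their values are given side by side, and differences between microRNAs were tested directly.

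**Figure D1:**
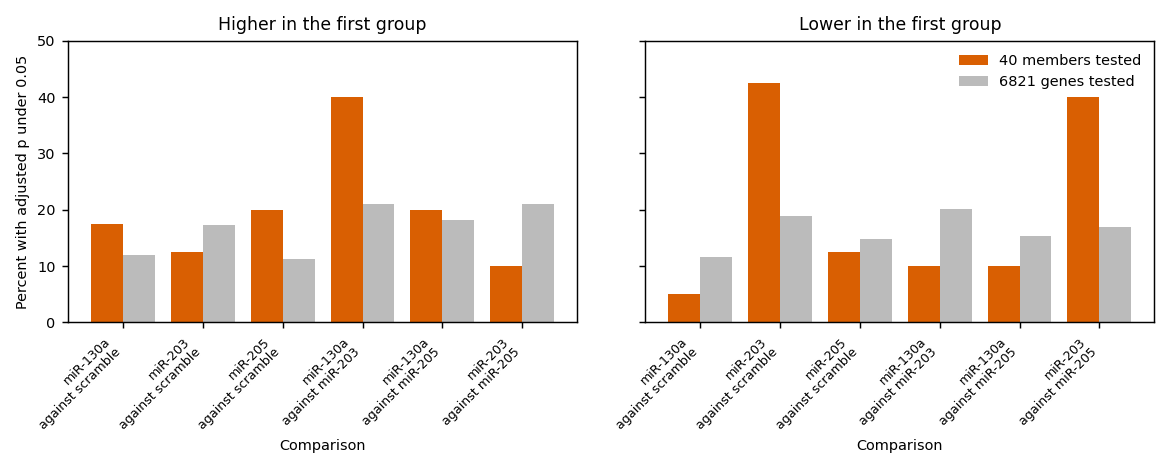
Percent of the 40 tested members (orange) and of all 6821 tested genes (grey) that were higher (left panel) or lower (right panel) in the first-named group of each comparison, at an adjusted p under 0.05. The members' bars for genes lower with miR-203 reach 42.5% against scramble and 40% against miR-205, and the bar for genes higher with miR-130a than with miR-203 reaches 40%.

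**Figure D2:**
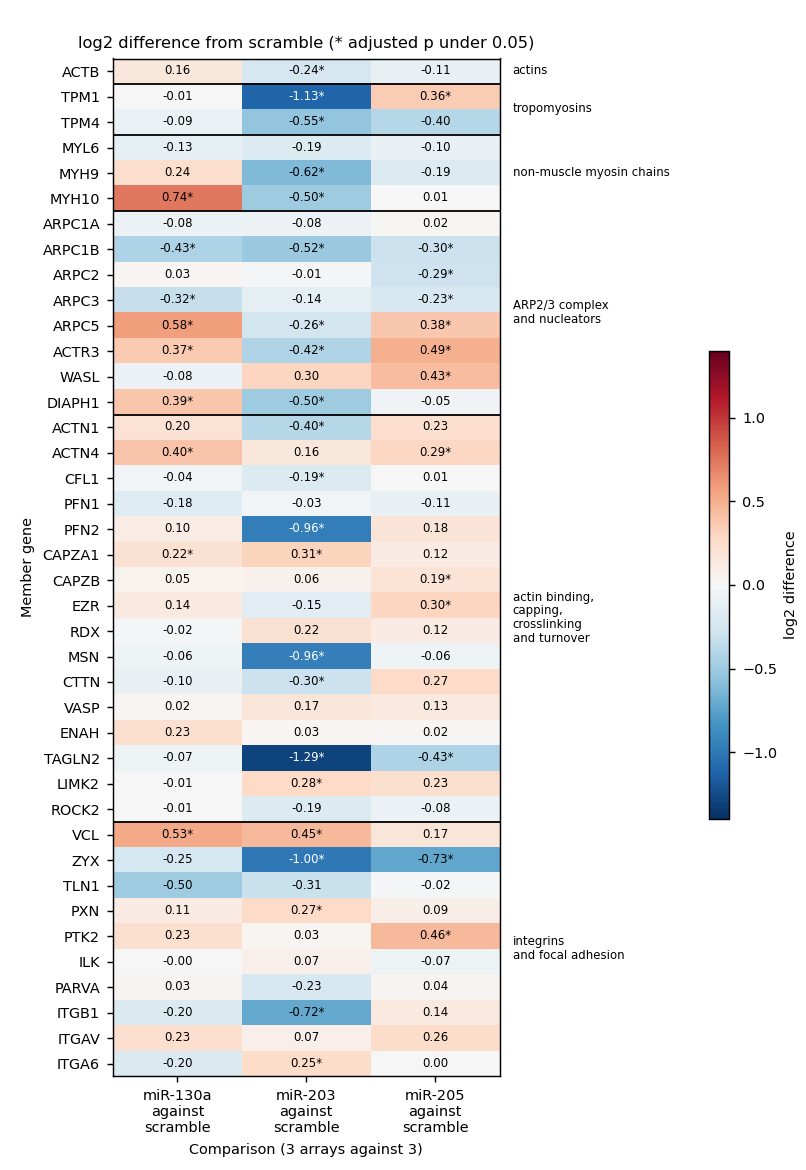
Difference of each tested member from scramble, in log2 units (colour and printed value), for miR-130a, miR-203 and miR-205 from left to right, with members ordered by role and a star at an adjusted p under 0.05. The starred blue cells of the miR-203 column run from ACTB to ITGB1, and the darkest is TAGLN2 at -1.29.

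Among the actins and tropomyosins, the largest change was in TPM1, the alpha tropomyosin that stabilises filaments in stress fibres. TPM1 was 2.18-fold lower with miR-203 and 1.28-fold higher with miR-205 than with scramble, and the miR-130a arrays overlapped scramble. Its log2 values were 8.23, 8.27 and 8.19 with miR-130a, 6.93, 7.15 and 7.27 with miR-203, 8.57, 8.58 and 8.64 with miR-205, and 8.31, 8.11 and 8.30 with scramble. Every miR-203 array lay below all other arrays, and every miR-205 array lay above all others. The difference from scramble was -1.13 ± 0.09 (SE, adjusted p = 9.86e-07) with miR-203, 0.36 ± 0.09 (SE, adjusted p = 0.00908) with miR-205 and -0.01 ± 0.09 (SE, adjusted p = 0.953) with miR-130a. All 3 bright probe sets of TPM1 were lower with miR-203, by -1.13 to -0.87 log2. With the mean of all its probe sets, which includes 1 dim one, the TPM1 difference shrank to -0.66 with miR-203 and to 0.18 with miR-205, and both still passed. That dim probe set went the other way with miR-203, at 0.46, its miR-203 arrays lying above all scramble arrays. It exceeded the array median on 2 miR-203 arrays and on no array of the other groups.

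TPM4, another non-muscle tropomyosin, had log2 values of 4.79, 4.31 and 4.22 with miR-130a, 3.88, 4.16 and 3.89 with miR-203, 4.19, 4.04 and 4.17 with miR-205, and 4.25, 4.87 and 4.47 with scramble. The miR-203 arrays lay below all scramble arrays, and so did the miR-205 arrays, but the scramble arrays were widely spread. TPM4 fell with miR-203 (-0.55 ± 0.16 SE, adjusted p = 0.0182), and the differences of -0.40 (adjusted p = 0.0925) with miR-205 and -0.09 (adjusted p = 0.752) with miR-130a did not pass. The other bright probe set of TPM4 stood at 0.31 with miR-130a, where its arrays lay above all scramble arrays. That probe set was at -0.31 with miR-203 and -0.18 with miR-205. The TPM4 call was lost without miR-203 replicate 1 or 3 or scramble replicate 2 (adjusted p = 0.0581 to 0.082) and with all probe sets including dim ones (adjusted p = 0.0903). Here and below, that last setting drops the filter, so that dim genes enter the fit and the adjustment. Each gene is still read from its probe set of highest mean alone. TPM2 sat at the floor of the scale, 2.36 log2, on all 12 arrays, which gives no information on its direction.

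ACTB, the cytoplasmic beta actin, moved little. Its values were 12.66, 12.60 and 12.59 with miR-130a, 12.30, 12.20 and 12.15 with miR-203, 12.45, 12.23 and 12.36 with miR-205, and 12.38, 12.57 and 12.42 with scramble. ACTB fell with miR-203 (-0.24 ± 0.08 SE, adjusted p = 0.033), the miR-203 arrays lying just below the scramble arrays, and its differences of 0.16 (adjusted p = 0.167) with miR-130a and -0.11 (adjusted p = 0.362) with miR-205 did not pass. The ACTB call was lost without miR-203 replicate 2 or 3 or scramble replicate 2 or 3 (adjusted p = 0.0529 to 0.12) and with median centring, the mean of the gene's probe sets, the probe set of largest variance or only the 6 arrays compared (adjusted p = 0.0633 to 0.476).

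The promoter of TPM4 is shown because, of the members that fell with miR-203 and had a promoter in the table, it alone carries a CArG box in the window examined. The window runs from 250 bases before to 50 bases after a RefSeq start site, GRCh38.p14 chr19:16067288-16067587, plus strand, and capitals mark the CArG box, whose first base lies 173 bases before the start.
TPM4 promoter: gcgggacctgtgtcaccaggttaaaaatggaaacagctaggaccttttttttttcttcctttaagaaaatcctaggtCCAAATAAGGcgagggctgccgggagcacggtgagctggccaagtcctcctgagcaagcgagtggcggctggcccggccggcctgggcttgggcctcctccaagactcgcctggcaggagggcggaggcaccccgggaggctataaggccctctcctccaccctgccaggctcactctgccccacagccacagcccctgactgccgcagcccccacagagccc
A promoter was held for 40 of the 47 members. The CArG box, searched on both strands by its consensus, was found in 4 of these 40 (10%), namely ACTG1, FLNA, ROCK2 and TPM4, and in 1.29% of 35116 promoters of the same length. Among members that fell with miR-203 it was found in 1 of 13 promoters (7.69%), and among the other tested members in 1 of 21 (4.76%). The letters GGAATG or CATTCC, the core bound by TEAD factors, were found in 6 of 40 members' promoters (15%), namely ITGB1, MYH9, MYH10, PFN1, ROCK2 and VCL, and in 14% of all promoters. That core was in 3 of 13 promoters (23.1%) of members that fell with miR-203 and in 3 of 21 (14.3%) of the other tested members. A match is a description of the letters in this window and not of binding.

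The non-muscle myosin II heavy chains MYH9 and MYH10 fell with miR-203, and MYH10 rose with miR-130a. MYH10, the heavy chain of myosin IIB, had log2 values of 9.19, 9.10 and 9.17 with miR-130a, 7.85, 8.001 and 7.90 with miR-203, 8.41, 8.45 and 8.41 with miR-205, and 8.46, 8.36 and 8.43 with scramble. The miR-130a arrays lay above and the miR-203 arrays below all others, and the miR-205 arrays overlapped those of scramble. MYH10 rose with miR-130a (0.74 ± 0.07 SE, adjusted p = 4.74e-06), fell with miR-203 (-0.50 ± 0.07 SE, adjusted p = 9.45e-05) and was at 0.01 ± 0.07 (SE, adjusted p = 0.946) with miR-205. Its second bright probe set moved the same way, by 0.87 with miR-130a and -0.31 with miR-203. With that probe set, the one of larger variance, the miR-203 call was lost (adjusted p = 0.0847).

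MYH9, the heavy chain of myosin IIA, had values of 5.84, 5.71 and 5.66 with miR-130a, 5.22, 4.86 and 4.55 with miR-203, 5.42, 5.24 and 5.26 with miR-205, and 5.39, 5.60 and 5.49 with scramble. The miR-203 arrays were the lowest, and they were also the most widely spread. MYH9 fell with miR-203 (-0.62 ± 0.13 SE, adjusted p = 0.00294), and its differences of 0.24 (adjusted p = 0.215) with miR-130a and -0.19 (adjusted p = 0.333) with miR-205 did not pass. MYL6, the essential light chain, did not pass in any comparison with scramble, at -0.13, -0.19 and -0.10 with miR-130a, miR-203 and miR-205. MYL9, the regulatory light chain of smooth muscle and non-muscle myosin, was dim throughout.

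**Figure D3:**
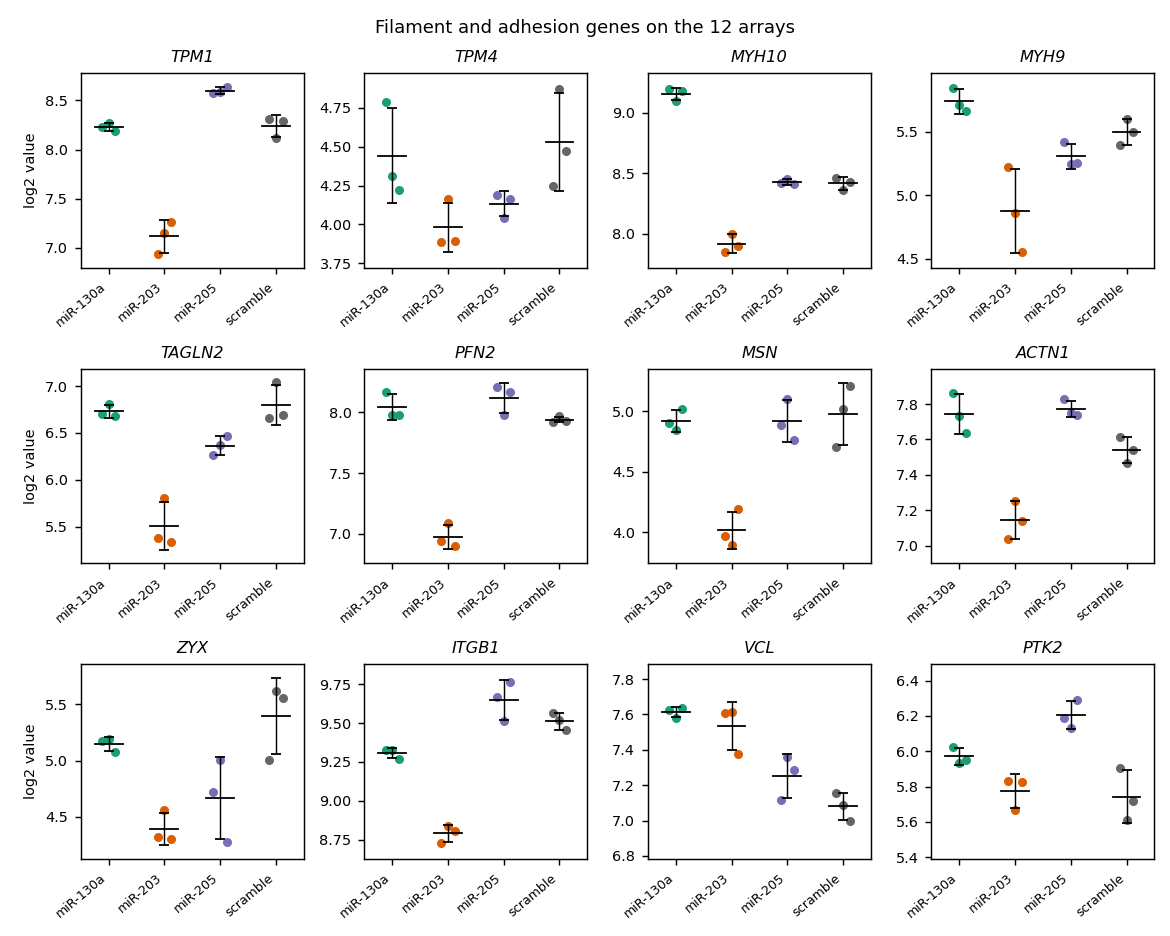
Log2 value of 12 members on each array, with a point per array and a bar for the mean ± SD of the 3 arrays of a group, with groups from left to right in the order miR-130a, miR-203, miR-205, scramble; each panel has its own vertical axis, which does not start at 0. The miR-203 points lie lowest for TPM1, MYH10, MYH9, TAGLN2, PFN2, MSN, ACTN1 and ITGB1, while those of VCL lie above the scramble points.

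Subunits of the ARP2/3 complex did not move as a unit. ACTR3, which encodes the ARP3 subunit, and ARPC5, the smallest subunit, fell with miR-203 and rose with both miR-130a and miR-205. ARPC1B fell with all 3 microRNAs, whereas its paralogue ARPC1A passed in no comparison. ARPC3 fell with miR-130a and miR-205, and ARPC2 with miR-205.

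ACTR3 had log2 values of 10.29, 10.16 and 10.20 with miR-130a, 9.56, 9.35 and 9.39 with miR-203, 10.42, 10.26 and 10.36 with miR-205, and 9.93, 9.74 and 9.89 with scramble. The miR-203 arrays lay below and the miR-130a and miR-205 arrays above all scramble arrays. ACTR3 differed from scramble by 0.37 ± 0.08 (SE, adjusted p = 0.00581) with miR-130a, -0.42 ± 0.08 (SE, adjusted p = 0.00167) with miR-203 and 0.49 ± 0.08 (SE, adjusted p = 0.000709) with miR-205. All 3 of its bright probe sets moved in these directions. With the probe set of largest variance, the miR-203 call was lost (adjusted p = 0.0536) and the miR-205 difference was 0.78.

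ARPC5 had values of 8.66, 8.64 and 8.68 with miR-130a, 7.80, 7.83 and 7.83 with miR-203, 8.42, 8.49 and 8.47 with miR-205, and 8.14, 8.10 and 8.0 with scramble. Its arrays followed the same arrangement as those of ACTR3, with no overlap between any microRNA and scramble. The difference was 0.58 ± 0.06 (SE, adjusted p = 2.45e-05) with miR-130a, -0.26 ± 0.06 (SE, adjusted p = 0.0066) with miR-203 and 0.38 ± 0.06 (SE, adjusted p = 0.000682) with miR-205. All 3 ARPC5 calls held under each alternative setting tried and without each array in turn.

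ARPC1B, 1 of the 2 alternative ARPC1 subunits, had values of 5.99, 5.97 and 5.94 with miR-130a, 6.03, 5.81 and 5.79 with miR-203, 6.07, 6.24 and 5.98 with miR-205, and 6.53, 6.24 and 6.42 with scramble. Each microRNA group lay at or below the lowest scramble array. It fell with miR-130a (-0.43 ± 0.10 SE, adjusted p = 0.00592), miR-203 (-0.52 ± 0.10 SE, adjusted p = 0.00103) and miR-205 (-0.30 ± 0.10 SE, adjusted p = 0.0346). The miR-205 call for ARPC1B was lost without miR-205 replicate 1 or 3 or scramble replicate 1 or 3 (adjusted p = 0.09 to 0.132) and with all probe sets including dim ones or only the 6 arrays compared (adjusted p = 0.084 to 0.0882). ARPC1A stood at -0.08, -0.08 and 0.02 with miR-130a, miR-203 and miR-205.

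ARPC3 had values of 9.26, 9.20 and 9.14 with miR-130a, 9.38, 9.39 and 9.36 with miR-203, 9.25, 9.26 and 9.36 with miR-205, and 9.38, 9.63 and 9.54 with scramble. All miR-130a and miR-205 arrays lay below the lowest scramble array, and the miR-203 arrays overlapped scramble. It fell with miR-130a (-0.32 ± 0.08 SE, adjusted p = 0.00842) and with miR-205 (-0.23 ± 0.08 SE, adjusted p = 0.0424), and -0.14 (adjusted p = 0.162) with miR-203 did not pass. The miR-205 call for ARPC3 was lost without miR-130a replicate 2 or 3, miR-203 replicate 2, any single miR-205 array or scramble replicate 2 or 3 (adjusted p = 0.0506 to 0.15) and with median centring, all probe sets including dim ones, the probe set of largest variance, only the 6 arrays compared or the replicate number as a block (adjusted p = 0.0509 to 0.0976).

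ARPC2 had values of 8.79, 8.65 and 8.56 with miR-130a, 8.75, 8.62 and 8.51 with miR-203, 8.36, 8.27 and 8.40 with miR-205, and 8.58, 8.60 and 8.75 with scramble. Only the miR-205 arrays were separate from scramble, and they were lower. ARPC2 fell with miR-205 (-0.29 ± 0.09 SE, adjusted p = 0.0224) and stood at 0.03 with miR-130a and -0.01 with miR-203, which did not pass. The ARPC2 call was lost without miR-205 replicate 1 or 2 or scramble replicate 3 (adjusted p = 0.0527 to 0.0904), and with the mean of its probe sets the difference was -0.19.

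**Figure D4:**
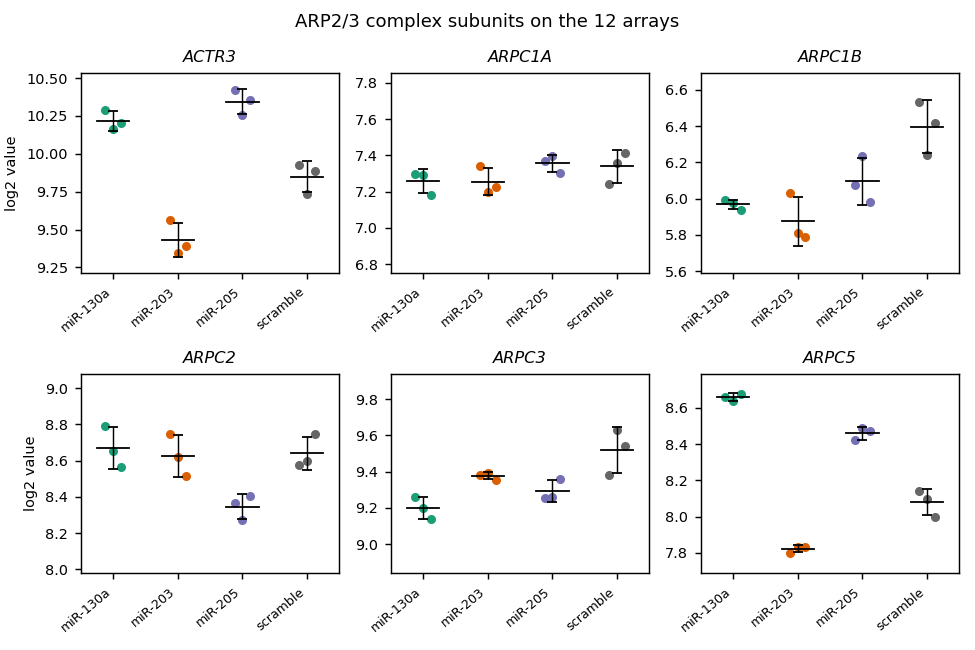
Log2 value of 6 ARP2/3 subunits on each array, with a point per array and a bar for the mean ± SD of the 3 arrays of a group, with groups in the order miR-130a, miR-203, miR-205, scramble; vertical axes differ between panels and do not start at 0. ACTR3 and ARPC5 share an arrangement, with miR-130a and miR-205 above and miR-203 below scramble, while in ARPC1B all 3 microRNA means lie below scramble.

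DIAPH1, a formin that starts unbranched filaments, had values of 6.72, 6.55 and 6.48 with miR-130a, 5.36, 5.87 and 5.85 with miR-203, 6.0, 6.29 and 6.13 with miR-205, and 6.29, 6.05 and 6.23 with scramble. The miR-130a arrays were above and the miR-203 arrays below scramble, and miR-203 replicate 1 was the lowest of all. DIAPH1 rose with miR-130a (0.39 ± 0.13 SE, adjusted p = 0.0481), fell with miR-203 (-0.50 ± 0.13 SE, adjusted p = 0.0102) and was at -0.05 (adjusted p = 0.836) with miR-205. The miR-130a call for DIAPH1 was lost without any single miR-130a array, miR-205 replicate 1 or 3 or any single scramble array (adjusted p = 0.0526 to 0.163) and with quantile scaling, median centring, all probe sets including dim ones, the probe set of largest variance or the replicate number as a block (adjusted p = 0.0508 to 0.164). Without miR-203 replicate 1 the miR-203 difference was -0.33 and passed (adjusted p = 0.0334), with the mean of its probe sets it was -0.26, and with all probe sets tested, including dim ones, it did not pass (adjusted p = 0.0534).

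WASL, the N-WASP protein that activates the ARP2/3 complex, had values of 4.86, 4.998 and 4.97 with miR-130a, 5.25, 5.15 and 5.55 with miR-203, 5.67, 5.12 and 5.56 with miR-205, and 5.18, 4.91 and 4.97 with scramble. The miR-205 arrays were mostly higher than scramble but overlapped it at the lower end. WASL rose with miR-205 (0.43 ± 0.14 SE, adjusted p = 0.0362), and 0.30 (adjusted p = 0.109) with miR-203 and -0.08 (adjusted p = 0.745) with miR-130a did not pass. The WASL call was lost without miR-130a replicate 3, miR-205 replicate 1 or 3 or scramble replicate 2 or 3 (adjusted p = 0.0503 to 0.152) and with all probe sets including dim ones or only the 6 arrays compared (adjusted p = 0.0979 to 0.134), and with the mean of its probe sets the difference was 0.28.

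Among the 16 tested proteins that bind, cap, crosslink or turn over filaments, 6 fell (37.5%) and 2 rose (12.5%) with miR-203, beside 18.9% and 17.3% of all genes. With miR-130a 2 rose (12.5%), beside 12% of all genes, and with miR-205 3 rose (18.8%) and 1 fell (6.25%), beside 11.3% and 14.8%. The largest decrease was that of TAGLN2, transgelin 2, a filament-binding protein of the calponin family. Its log2 values were 6.70, 6.81 and 6.68 with miR-130a, 5.38, 5.80 and 5.34 with miR-203, 6.27, 6.37 and 6.46 with miR-205, and 6.66, 7.04 and 6.70 with scramble. The miR-203 arrays lay below all others, and the miR-205 arrays lay between them and scramble. TAGLN2 fell with miR-203 (-1.29 ± 0.13 SE, adjusted p = 7.27e-06) and with miR-205 (-0.43 ± 0.13 SE, adjusted p = 0.0237), and -0.07 (adjusted p = 0.748) with miR-130a did not pass. The miR-205 call for TAGLN2 was lost without miR-205 replicate 1 or 2 or scramble replicate 2 (adjusted p = 0.0559 to 0.1) and with all probe sets including dim ones or the mean of the gene's probe sets (adjusted p = 0.0517 to 0.0956).

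PFN2, the profilin that feeds actin monomers to growing ends and is abundant in neurons, had values of 8.17, 7.98 and 7.98 with miR-130a, 6.94, 7.09 and 6.90 with miR-203, 8.21, 7.98 and 8.16 with miR-205, and 7.92, 7.97 and 7.93 with scramble. The miR-203 arrays were well below all others, and the other 3 groups lay close together. PFN2 fell with miR-203 (-0.96 ± 0.08 SE, adjusted p = 2.54e-06), and its differences of 0.10 (adjusted p = 0.428) with miR-130a and 0.18 (adjusted p = 0.142) with miR-205 did not pass. The other profilin, PFN1, stood at -0.03 (adjusted p = 0.794) with miR-203.

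MSN, moesin, ties filaments to the membrane together with ezrin and radixin. Its values were 4.90, 4.84 and 5.02 with miR-130a, 3.97, 3.89 and 4.19 with miR-203, 4.89, 5.10 and 4.76 with miR-205, and 4.70, 5.02 and 5.21 with scramble. Only the miR-203 arrays left the range of scramble, and they were lower. MSN fell with miR-203 (-0.96 ± 0.13 SE, adjusted p = 9.45e-05) and stood at -0.06 with miR-130a and -0.06 with miR-205, which did not pass. The related EZR and RDX stood at -0.15 (adjusted p = 0.278) and 0.22 (adjusted p = 0.0618) with miR-203. The miR-203 arrays of RDX lay above all scramble arrays. Its difference passed with quantile scaling, median centring or a trended and robust prior (adjusted p = 0.0328 to 0.0371). The other bright probe sets of RDX stood at 0.43 and 0.09 with miR-203.

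EZR, ezrin, had values of 6.61, 6.46 and 6.37 with miR-130a, 6.16, 6.28 and 6.12 with miR-203, 6.62, 6.54 and 6.78 with miR-205, and 6.46, 6.12 and 6.45 with scramble. The miR-205 arrays lay just above the highest scramble array. EZR rose with miR-205 (0.30 ± 0.11 SE, adjusted p = 0.0495), close to the threshold, and the call was lost without any single miR-130a array, any single miR-203 array, miR-205 replicate 1 or 3 or scramble replicate 2 or 3 (adjusted p = 0.0501 to 0.195) and with all probe sets including dim ones, the mean of the gene's probe sets, the probe set of largest variance, only the 6 arrays compared or the replicate number as a block (adjusted p = 0.0583 to 0.487).

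The 2 alpha-actinins, which crosslink filaments, differed in their calls. ACTN4 had values of 7.35, 7.25 and 7.40 with miR-130a, 7.28, 7.05 and 6.96 with miR-203, 7.26, 7.32 and 7.08 with miR-205, and 6.91, 7.03 and 6.87 with scramble. The miR-130a and miR-205 arrays were above all scramble arrays, and the miR-203 arrays overlapped them. ACTN4 rose with miR-130a (0.40 ± 0.09 SE, adjusted p = 0.00837) and with miR-205 (0.29 ± 0.09 SE, adjusted p = 0.0416), and 0.16 (adjusted p = 0.214) with miR-203 did not pass. The miR-205 call for ACTN4 was lost without any single miR-130a array, miR-203 replicate 2, miR-205 replicate 1 or 2 or scramble replicate 1 or 3 (adjusted p = 0.0513 to 0.133) and with all probe sets including dim ones or only the 6 arrays compared (adjusted p = 0.0587 to 0.0991). ACTN1 fell with miR-203 (-0.40 ± 0.08 SE, adjusted p = 0.00208), its miR-203 arrays lying below all others. It was at 0.20 (adjusted p = 0.0931) with miR-130a and 0.23 (adjusted p = 0.0528) with miR-205, and both groups lay above all scramble arrays. The miR-205 difference of ACTN1 passed under some alternatives, such as median centring, and not under others.

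CAPZA1, the alpha subunit of the protein that caps filament ends, had values of 9.55, 9.52 and 9.38 with miR-130a, 9.51, 9.56 and 9.64 with miR-203, 9.33, 9.37 and 9.44 with miR-205, and 9.27, 9.30 and 9.22 with scramble. All microRNA arrays lay above the highest scramble array. CAPZA1 rose with miR-130a (0.22 ± 0.07 SE, adjusted p = 0.0398) and with miR-203 (0.31 ± 0.07 SE, adjusted p = 0.00442), and 0.12 (adjusted p = 0.254) with miR-205 did not pass. The miR-130a call for CAPZA1 was lost without miR-130a replicate 1 or 2, miR-203 replicate 2 or any single scramble array (adjusted p = 0.0531 to 0.133) and with median centring, the probe set of largest variance, only the 6 arrays compared or the replicate number as a block (adjusted p = 0.0526 to 0.0619). The beta subunit, CAPZB, rose with miR-205 (0.19 ± 0.06 SE, adjusted p = 0.037), a call lost without miR-130a replicate 2 or 3, miR-205 replicate 1 or 3 or scramble replicate 1 or 2 (adjusted p = 0.0505 to 0.119) and with only the 6 arrays compared or the replicate number as a block (adjusted p = 0.0529 to 0.0691), and the difference was 0.34 on its probe set of largest variance.

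CTTN, cortactin, which steadies branch points, had values of 6.94, 7.16 and 7.02 with miR-130a, 6.84, 6.84 and 6.85 with miR-203, 7.32, 7.58 and 7.32 with miR-205, and 7.32, 6.99 and 7.11 with scramble. The miR-203 arrays lay below all scramble arrays. CTTN fell with miR-203 on its brightest probe set (-0.30 ± 0.10 SE, adjusted p = 0.0327), and its other 2 bright probe sets went the other way, the difference being 0.25 on the one of largest variance. The CTTN call was lost without any single miR-203 array or scramble replicate 1 or 3 (adjusted p = 0.0586 to 0.126) and with all probe sets including dim ones, the mean of the gene's probe sets, the probe set of largest variance or only the 6 arrays compared (adjusted p = 0.0592 to 0.528).

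LIMK2, the kinase that inactivates cofilin, had values of 5.40, 5.32 and 5.42 with miR-130a, 5.58, 5.72 and 5.72 with miR-203, 5.57, 5.70 and 5.58 with miR-205, and 5.66, 5.24 and 5.26 with scramble. The miR-203 arrays overlapped scramble replicates through a single high scramble array. LIMK2 rose with miR-203 (0.28 ± 0.10 SE, adjusted p = 0.0459), and its call was lost without any single miR-130a array, miR-203 replicate 2 or 3, any single miR-205 array or scramble replicate 2 or 3 (adjusted p = 0.0519 to 0.165) and with all probe sets including dim ones, the mean of the gene's probe sets, the probe set of largest variance, only the 6 arrays compared or the replicate number as a block (adjusted p = 0.05 to 0.138). Cofilin itself, CFL1, fell with miR-203 (-0.19 ± 0.07 SE, adjusted p = 0.0434), and that call was lost without miR-130a replicate 2 or 3, any single miR-203 array, miR-205 replicate 1 or 3 or scramble replicate 2 or 3 (adjusted p = 0.0513 to 0.145) and with quantile scaling, median centring, the probe set of largest variance, only the 6 arrays compared or array weights (adjusted p = 0.0568 to 0.109). In the main fit, VASP, ENAH, PFN1, RDX and ROCK2 passed in no comparison with scramble, with differences between -0.19 and 0.23.

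Among the 10 integrin and focal adhesion genes, 2 fell (20%) and 3 rose (30%) with miR-203, beside 18.9% and 17.3% of all genes, so the share that fell was near the background. With miR-130a 1 rose (10%), beside 12% of all genes, and with miR-205 1 rose and 1 fell (10% each), beside 11.3% and 14.8%. ITGB1, the integrin beta 1 chain that pairs with most matrix-binding alpha chains, fell with miR-203. Its log2 values were 9.32, 9.33 and 9.27 with miR-130a, 8.73, 8.84 and 8.81 with miR-203, 9.66, 9.51 and 9.77 with miR-205, and 9.56, 9.52 and 9.45 with scramble. The miR-203 arrays lay below all others, and the miR-130a arrays were between them and scramble. The ITGB1 difference was -0.72 ± 0.08 (SE, adjusted p = 1.22e-05) with miR-203, and -0.20 (adjusted p = 0.0692) with miR-130a and 0.14 (adjusted p = 0.209) with miR-205 did not pass. Only 1 of its 5 probe sets is bright, and with the mean of all 5 the miR-203 difference was -0.14.

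ZYX, zyxin, a LIM protein of adhesions and stress fibres, had values of 5.17, 5.19 and 5.08 with miR-130a, 4.32, 4.56 and 4.30 with miR-203, 4.72, 5.004 and 4.28 with miR-205, and 5.01, 5.62 and 5.56 with scramble. The miR-203 arrays lay well below scramble, and scramble replicate 1 sat just above the highest miR-205 array. ZYX fell with miR-203 (-1.001 ± 0.18 SE, adjusted p = 0.000779) and with miR-205 (-0.73 ± 0.18 SE, adjusted p = 0.00881), and -0.25 (adjusted p = 0.35) with miR-130a did not pass. Both of its probe sets moved down with miR-203 and with miR-205. The miR-205 call for ZYX was lost with all probe sets including dim ones or only the 6 arrays compared (adjusted p = 0.0605 to 0.0689).

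VCL, vinculin, which links talin to actin, went the other way. Its values were 7.63, 7.58 and 7.64 with miR-130a, 7.61, 7.61 and 7.38 with miR-203, 7.12, 7.36 and 7.29 with miR-205, and 7.15, 7.09 and 7.0 with scramble. The miR-130a and miR-203 arrays were above all scramble arrays, and the miR-205 arrays overlapped scramble. VCL rose with miR-130a (0.53 ± 0.09 SE, adjusted p = 0.00065) and with miR-203 (0.45 ± 0.09 SE, adjusted p = 0.00134), and 0.17 (adjusted p = 0.169) with miR-205 did not pass. With the mean of its probe sets, which includes a dim one, the VCL differences were 0.27 with miR-130a and 0.23 with miR-203, and both passed.

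PTK2, focal adhesion kinase, had values of 6.02, 5.94 and 5.95 with miR-130a, 5.83, 5.67 and 5.82 with miR-203, 6.19, 6.13 and 6.29 with miR-205, and 5.91, 5.61 and 5.72 with scramble. The miR-205 arrays lay above all others. PTK2 rose with miR-205 (0.46 ± 0.09 SE, adjusted p = 0.00156), and 0.23 (adjusted p = 0.0749) with miR-130a and 0.03 (adjusted p = 0.814) with miR-203 did not pass. The miR-130a arrays of PTK2 also lay above all scramble arrays. Its miR-130a difference passed with the mean of probe sets, array weights, the replicate number as a block or without scramble replicate 1 (adjusted p = 0.0196 to 0.0486). Both of its bright probe sets were higher with miR-205.

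PXN, paxillin, had values of 4.34, 4.06 and 3.99 with miR-130a, 4.32, 4.30 and 4.25 with miR-203, 4.17, 4.04 and 4.14 with miR-205, and 4.05, 3.95 and 4.05 with scramble, and its miR-203 arrays lay above all scramble arrays. PXN rose with miR-203 (0.27 ± 0.09 SE, adjusted p = 0.0266), but its second bright probe set stood at -0.02, and the call was lost without miR-203 replicate 1 or 2 or scramble replicate 2 (adjusted p = 0.0628 to 0.0845) and with all probe sets including dim ones, the mean of the gene's probe sets, the probe set of largest variance or a trended and robust prior (adjusted p = 0.05 to 0.948). ITGA6, the integrin alpha 6 chain of laminin receptors, had values of 3.75, 3.52 and 3.63 with miR-130a, 4.15, 4.16 and 3.97 with miR-203, 3.82, 3.78 and 3.92 with miR-205, and 3.82, 3.82 and 3.87 with scramble. Its miR-203 arrays were also the highest. ITGA6 rose with miR-203 (0.25 ± 0.08 SE, adjusted p = 0.0246), but its second bright probe set stood at -0.08, and the call was lost without miR-203 replicate 1 or 2 or scramble replicate 1 or 2 (adjusted p = 0.0543 to 0.0829) and with the mean of the gene's probe sets, the probe set of largest variance or a trended and robust prior (adjusted p = 0.0537 to 0.729).

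In the main fit, TLN1, ILK, PARVA and ITGAV passed in no comparison with scramble. PARVA passed as lower with miR-203 under array weights or without miR-203 replicate 3 (adjusted p = 0.00408 to 0.0108). ITGAV passed as higher with miR-205 under median centring or without scramble replicate 1 (adjusted p = 0.0435 to 0.0488). The miR-130a and miR-205 arrays of ITGAV lay above all scramble arrays. TLN1, talin, had the widest spread within a group of all tested members, an SD of 0.471 log2 over the scramble arrays, against a median SD of 0.0884 over members and groups. Its difference was -0.50 (adjusted p = 0.151) with miR-130a. PARVA, parvin alpha, was the dimmest tested member and lay above the array median on 10 of 12 arrays, with 3 equal values in scramble. Equal values within a group occurred in 5 members (VASP, PXN, ILK, PARVA and ITGA6), which narrows their measured spread.

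Probe sets of the same gene served as a further reading of each call. Of the members called with miR-203 that have more than 1 bright probe set, 10 of 13 had all of them on the same side of scramble, the exceptions being CTTN, PXN and ITGA6. The same held for 3 of 3 with miR-130a and 8 of 8 with miR-205. Probe sets of a gene are read from the same RNA, so they are not replicates.

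**Figure D5:**
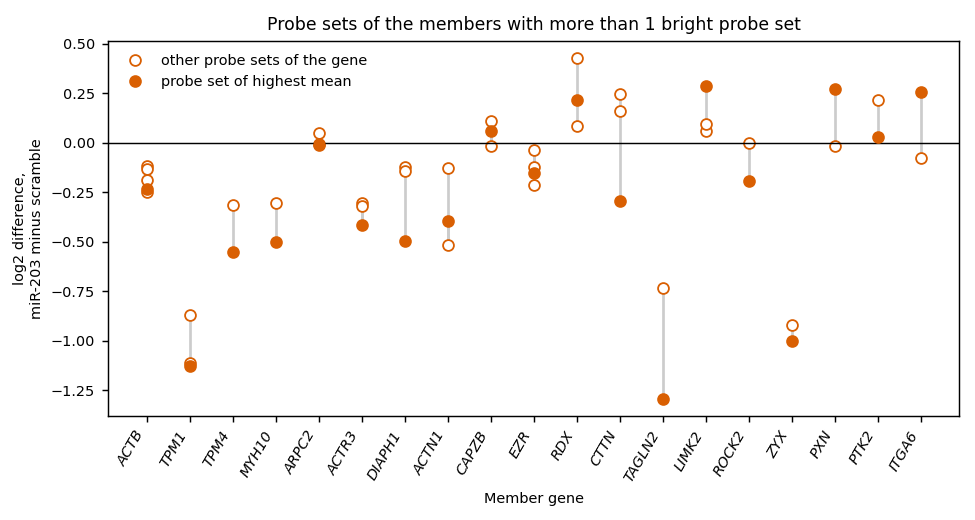
Difference of miR-203 minus scramble, in log2 units, for every bright probe set of the members that have more than 1, with the probe set of highest mean filled and the others open. TPM1, TAGLN2 and ZYX lie below 0 on all the bright probe sets shown, while CTTN, PXN and ITGA6 have points on both sides of 0. A dim probe set of TPM1, at 0.46, is not shown.

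The microRNAs also differed from one another directly. Against miR-203, miR-130a had 16 members higher (40%), beside 21.1% of all genes, and 4 lower (10%), beside 20.1% of all genes. Over all genes this comparison gave 1437 higher and 1370 lower, and 1261 higher and 1817 lower after median centring, which left 13 members higher and 6 lower. The largest member differences upward were MYH10 at 1.24 ± 0.07 (SE, adjusted p = 3.59e-08), TAGLN2 at 1.22 ± 0.13 (SE, adjusted p = 8.47e-06) and TPM1 at 1.12 ± 0.09 (SE, adjusted p = 7.82e-07). Those downward were ITGA6 at -0.46 ± 0.08 (SE, adjusted p = 0.000537), WASL at -0.38 ± 0.14 (SE, adjusted p = 0.0443) and LIMK2 at -0.29 ± 0.10 (SE, adjusted p = 0.0374). The call for ITGA6 was lost with the probe set of largest variance (adjusted p = 0.169), that for WASL without any single miR-130a array, miR-203 replicate 1 or 3, miR-205 replicate 3 or scramble replicate 3 (adjusted p = 0.0524 to 0.171) and with all probe sets including dim ones or array weights (adjusted p = 0.0529 to 0.146), and that for LIMK2 without any single miR-130a array or miR-203 replicate 2 or 3 (adjusted p = 0.0667 to 0.11) and with all probe sets including dim ones or the replicate number as a block (adjusted p = 0.0527 to 0.0979).

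Against miR-205, miR-130a had 8 members higher (20%), beside 18.2% of all genes, and 4 lower (10%), beside 15.4% of all genes. Over all genes this comparison gave 1243 higher and 1050 lower, and 1061 higher and 1414 lower after median centring. The members' balance turned with the scaling, with 5 higher and 8 lower after median centring and 8 higher and 7 lower after quantile scaling. MYH10 (0.73 ± 0.07 SE, adjusted p = 3.06e-06), DIAPH1 (0.44 ± 0.13 SE, adjusted p = 0.0206) and MYH9 (0.43 ± 0.13 SE, adjusted p = 0.0236) were higher with miR-130a. WASL (-0.51 ± 0.14 SE, adjusted p = 0.0125), TPM1 (-0.37 ± 0.09 SE, adjusted p = 0.00559) and CTTN (-0.37 ± 0.10 SE, adjusted p = 0.012) were lower with miR-130a. The DIAPH1 call was lost without miR-130a replicate 1 or miR-205 replicate 1 or 3 (adjusted p = 0.0552 to 0.0863) and with all probe sets including dim ones (adjusted p = 0.0862), and the MYH9 call without miR-130a replicate 1 or 2 or miR-205 replicate 2 or 3 (adjusted p = 0.0521 to 0.0865) and with all probe sets including dim ones (adjusted p = 0.0953). The WASL call was lost without miR-205 replicate 1 or 3 (adjusted p = 0.052 to 0.0635) and with all probe sets including dim ones (adjusted p = 0.0631), and the CTTN call without miR-130a replicate 1 or miR-205 replicate 2 (adjusted p = 0.054 to 0.0551) and with the probe set of largest variance (adjusted p = 0.161). Without miR-130a replicate 1 the 12 members called in this comparison became 6, and without miR-205 replicate 3 they became 7.

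Against miR-205, miR-203 had 4 members higher (10%), beside 21% of all genes, and 16 lower (40%), beside 16.9% of all genes. TPM1 (-1.49 ± 0.09 SE, adjusted p = 6.69e-08), PFN2 (-1.14 ± 0.08 SE, adjusted p = 3.96e-07) and ACTR3 (-0.91 ± 0.08 SE, adjusted p = 2.53e-06) were the lowest with miR-203. ARPC2 (0.28 ± 0.09 SE, adjusted p = 0.0201), VCL (0.28 ± 0.09 SE, adjusted p = 0.0215) and ITGA6 (0.25 ± 0.08 SE, adjusted p = 0.0251) were higher with miR-203. The ARPC2 call was lost without miR-203 replicate 1 or miR-205 replicate 2 (adjusted p = 0.0708 to 0.0752), the VCL call without miR-203 replicate 1 or 2 or miR-205 replicate 1 (adjusted p = 0.0693 to 0.0987) and with the mean of the gene's probe sets or only the 6 arrays compared (adjusted p = 0.0629 to 0.0692) and the ITGA6 call without miR-203 replicate 1 or 2 or miR-205 replicate 1 or 2 (adjusted p = 0.0683 to 0.088) and with the mean of the gene's probe sets, the probe set of largest variance, only the 6 arrays compared or a trended and robust prior (adjusted p = 0.0504 to 0.757). Arrays of miR-203 and miR-205 with the same replicate number deviated together. With the number as a block over the 9 microRNA arrays, a fit added after seeing the data, 18 members passed in place of 20, CAPZA1 (adjusted p = 0.0819) and PARVA (adjusted p = 0.0574) being lost. The members' medians were 0.19 log2 for miR-130a minus miR-203, -0.03 for miR-130a minus miR-205 and -0.17 for miR-203 minus miR-205, and those of all genes were -0.02, -0.01 and 0.03.

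The direct comparisons sort the members into patterns. TPM1 had different levels in all pairs but miR-130a and scramble. TPM1, MYH9, MYH10, ARPC5, DIAPH1, TAGLN2 and ITGB1 passed in every pair of microRNAs, which is 7 of 40 (17.5%), beside 8.8% of all genes. Of these 7, TPM1 and MYH10 passed in all 3 pairs under each alternative tried. Between miR-130a and miR-205, the ARPC5 call was lost without any single miR-130a array or miR-205 replicate 1 or 3 (adjusted p = 0.0561 to 0.0887) and with median centring (adjusted p = 0.0906), the TAGLN2 call without any single miR-130a array, any single miR-205 array or scramble replicate 3 (adjusted p = 0.0505 to 0.137) and with median centring or all probe sets including dim ones (adjusted p = 0.075 to 0.14) and the ITGB1 call with the mean of the gene's probe sets (adjusted p = 0.137). The ITGB1 call between miR-130a and miR-203 was lost with the mean of the gene's probe sets (adjusted p = 0.077). Between miR-203 and miR-205, the MYH9 call was lost without miR-203 replicate 2 or 3 or miR-205 replicate 1 (adjusted p = 0.0586 to 0.0886) and with all probe sets including dim ones or only the 6 arrays compared (adjusted p = 0.0862 to 0.0899) and the DIAPH1 call without miR-203 replicate 1 or miR-205 replicate 2 (adjusted p = 0.0619 to 0.0706) and with all probe sets including dim ones or only the 6 arrays compared (adjusted p = 0.0651 to 0.0751). For ARPC1B no pair of microRNAs passed, the 3 differences lying between -0.22 and 0.09. Over the 3 comparisons with scramble, 11 of the 40 members passed in none (27.5%), beside 43.5% of all genes.

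Beyond the members, 131 further genes of actin regulation and adhesion were listed, of which 112 were named and 78 tested. With miR-130a 11 rose (14.1%) and 8 fell (10.3%), beside 12% and 11.6% of all genes. With miR-203 13 rose (16.7%) and 16 fell (20.5%), beside 17.3% and 18.9% of all genes, so the pooled shares with miR-130a and miR-203 were near the background. With miR-205 14 rose (17.9%) and 7 fell (8.97%), beside 11.3% and 14.8% of all genes. Their median differences were 0.01, -0.01 and 0.02 log2 with miR-130a, miR-203 and miR-205. Without miR-130a replicate 1 or replicate 3, 12 of them in place of 19 passed with miR-130a. Within this set, the list of SRF and MRTF regulators and responsive genes departed from the pooled shares. Of its 8 tested genes, 4 rose (50%) and none fell with miR-130a, beside 12% and 11.6% of all genes. With miR-203 4 rose (50%) and 1 fell (12.5%), beside 17.3% and 18.9%. With miR-205 none rose and 1 fell (12.5%), beside 11.3% and 14.8%.

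With miR-203, the lowest of these were LASP1 at -1.96 ± 0.10 (SE, adjusted p = 3.41e-08), a LIM and SH3 protein of focal adhesions, CORO1B at -1.18 ± 0.07 (SE, adjusted p = 6.26e-08) and CORO1C at -0.97 ± 0.09 (SE, adjusted p = 3.62e-06), coronins that dismantle ARP2/3 branches, and WASF2 at -0.96 ± 0.11 (SE, adjusted p = 3.36e-05), a WAVE protein that activates the ARP2/3 complex. LASP1 had log2 values of 5.36, 5.79 and 5.60 with miR-203 and 7.51, 7.51 and 7.60 with scramble, so that its miR-203 arrays lay far below all scramble arrays. The highest with miR-203 were PLS3 at 0.70, YAP1 at 0.59, CAP2 at 0.55 and DIAPH2 at 0.53.

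With miR-130a, ROCK1, a kinase that drives myosin activity, fell (-0.79 ± 0.08 SE, adjusted p = 1.76e-05), as did RHOB at -0.59, TMSB4X at -0.54 and TES at -0.47. ROCK1 had values of 6.09, 5.87 and 6.02 with miR-130a and 6.83, 6.81 and 6.71 with scramble, with no overlap. The adaptor CRKL (0.62), the matricellular CCN1 (0.57), the filament bundler PLS3 (0.52) and the transcription factor JUNB (0.50) rose. With miR-205, CDC42EP3, a CDC42 effector, rose most (1.51 ± 0.09 SE, adjusted p = 2.46e-07), with values of 6.70, 6.63 and 6.81 with miR-205 and 5.31, 5.11 and 5.20 with scramble. PLS3 (0.73), WASF3 (0.54) and PPP1R12A (0.50), the targeting subunit of myosin phosphatase, rose too, and YAP1 (-0.85), TMSB4X (-0.60), TES (-0.58) and EPS8 (-0.58) fell.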

How the data were processed

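Total RNA of 12 LNCaP cultures was measured on 1-colour arrays, and the authors deposited 1 table of log2 values for 22277 probe sets. Per the submitters' processing notes, R 2.9.0, RMA and limma were used, with no role or order given. How background was treated, and which annotation summarised the probe sets, is not given in the sources used here. Each column carries a sample identifier and was matched through it. Probe sets were named through the supplied platform annotation, of which 19070 have 1 symbol, 1043 several and 2164 none, and the analysis kept the first kind. A gene is its probe set of highest mean over the 12 arrays, and it entered the tests when it exceeded the median of at least 3 arrays.

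A model of 4 group means was fitted with limma 3.58.1 in R 4.3.3 (8 residual and 4.84 prior degrees of freedom). Comparisons were two-sided and adjusted by Benjamini-Hochberg over the 6821 genes, with a threshold of 0.05. Differences are log2 means, first-named group minus second-named, with the model standard error (SE). The procedure was tested on simulated data. The members and the gene lists were chosen with earlier results of these data known. The rule for named genes gives array values for actins and tropomyosins. Per comparison with scramble it adds up to 6 members in each direction whose arrays do not overlap, and per pair of microRNAs up to 3. WASL and LIMK2, which passed with overlapping arrays, are described because a pair of microRNAs names them. The alternatives were 2 scalings, 2 filters, 2 rules for probe sets, the 6 arrays compared alone, array weights, a trended and robust prior, the replicate number as a block, and leaving out each of the 12 arrays. In residuals from the group means, all 3 same-number pairs of miR-203 and miR-205 correlated above 0.1 (0.105 to 0.313), so the numbers were taken to pair these groups, from the data and not from the labels. A block over the 9 microRNA arrays was added for that reason. Arrays of different groups and unlike number correlated at -0.284 to 0.163, so some of those pairs also exceeded 0.1. A lone array is never left, since 2 remain in each group. Motifs were searched in RefSeq promoters of 300 bases on both strands, the CArG box over 10 letters.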

Additional observations from a re-analysis of the deposited data

How the results depend on the processing

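All 22 alternatives and 1 more chosen after seeing the data gave values. Of the calls with scramble, 7 of 9 members with miR-130a, 12 of 22 with miR-203 and 4 of 13 with miR-205 passed under every alternative that covers them and without each array in turn. Those kept with miR-203 were TPM1, MYH9, ARPC1B, ARPC5, ACTN1, PFN2, CAPZA1, MSN, TAGLN2, VCL, ZYX and ITGB1, and those with miR-205 were TPM1, ARPC5, ACTR3 and PTK2. The decreases with miR-130a became 4 with median centring. With miR-203, the 22 calls became 14 with the probe set of largest variance, and the 5 increases became 3 with no filter, 3 with the mean of probe sets and 2 with the largest variance. With miR-205, the 13 calls became 6 with no filter and 7 with only the 6 arrays compared, the 8 increases became 5 and 5, and the 5 decreases 1 and 2. Leaving out each array in turn gave 5 to 15 calls with miR-205 (4 to 10 increases, 1 to 5 decreases), 2 to 5 increases with miR-203, 6 to 15 calls for miR-130a against miR-205, and 12 to 20 of the other actin and adhesion genes with miR-130a. CTTN reversed for miR-203 against scramble at 0.052 with the mean of probe sets and 0.25 with the largest variance, for miR-130a against miR-203 at -0.16 with the mean, and for miR-203 against miR-205 at 0.11 with the largest variance. PXN (-0.016) and ITGA6 (-0.076) reversed for miR-203 against scramble with the largest variance, where another probe set of the gene is read. Some differences from scramble that did not pass in the main fit passed under some alternatives. Among them were MYL6, RDX and PARVA with miR-203, ACTN1 and ITGAV with miR-205, and ENAH, PTK2, ITGB1 and ITGA6 with miR-130a. The cause of the other changes was not tested. The signal over background limits dim members, of which PARVA is the dimmest tested.

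The replicate numbers were not taken to pair the scramble arrays or the miR-130a arrays with any other group, since not every same-number pair correlated above 0.1: the residuals of such pairs correlated at -0.112 to 0.0404 with scramble and at 0.0285 to 0.0965 between miR-130a and the other microRNAs. As a hint from the data, each of the 9 microRNA arrays correlated best with its own number in both other microRNA groups, and the scramble arrays did not. With the replicate number as a block over all 12 arrays, 9, 21 and 10 members were called with miR-130a, miR-203 and miR-205 against scramble, beside 9, 22 and 13 without it, and 19, 14 and 19 for miR-130a against miR-203, miR-130a against miR-205 and miR-203 against miR-205, beside 20, 12 and 20. The block over the 9 microRNA arrays alone gave 20, 15 and 18 for those pairs.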
